A study of Mus musculus with 5 samples.

Results

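The 9 genes described here encode brakes and accelerators of the step from G1 to S phase: the Cip/Kip inhibitors Cdkn1a, Cdkn1b and Cdkn1c, the INK4 inhibitors Cdkn2a, Cdkn2b and Cdkn2c, and the D-type cyclins Ccnd1, Ccnd2 and Ccnd3. They were selected by symbol from the 27998 genes of the count matrices, as a family proposed with results of these data in view, so their levels are given as a description and carry no test. All 9 were detected, with 773 UMIs (unique molecular identifiers, 1 per captured transcript) for Cdkn2a, the lowest, and 30648 for Cdkn1a, the highest, over all 14344 barcodes. The levels below rest on the 11583 barcodes placed in 5 cell classes: 2545 hormone-sensing luminal (L-Hor), 1069 alveolar luminal (L-Alv), 409 basal, 306 cycling and 7254 fibroblast barcodes. Each class is a set of clusters named from fixed markers and is therefore, strictly, L-Hor-like, L-Alv-like, basal-like, cycling-like or fibroblast-like; the shorter names are used from here on.

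Single-cell RNA was measured in mammary glands of ovariectomized female BALB/cj mice, in 5 droplet libraries with 1 library per group. All animals had been ovariectomized 20 weeks before a 1-week treatment, and the labels give an age of 30 weeks. The OVX group received vehicle, OVX_E2 received estradiol at 1 µg per animal per day, and OVX_E2_P4 received the same estradiol with progesterone at 0.1 mg per animal per day. OVX_E2_PBDE and OVX_E2_P4_PBDE received these hormones together with food holding the flame-retardant congeners BDE-47 at 7.1, BDE-100 at 0.4 and BDE-153 at 0.9 mg per kg, while the other groups ate food with the DMSO solvent alone. The fourth mammary gland was dissociated after its lymph node had been removed, dead cells were depleted and no cell type was sorted. How many mice entered a library is not given in the sources used here, and since each condition is 1 library, the condition cannot be told apart from the animals, the dissociation or the library.

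D-type cyclins bind CDK4 and CDK6 and, by phosphorylating the retinoblastoma protein, free E2F factors to switch on S-phase genes. INK4 proteins bind CDK4 and CDK6 themselves, whereas Cip/Kip proteins mainly inhibit cyclin E and cyclin A complexes of CDK2 and can also help cyclin D complexes to assemble. In the mammary epithelium Ccnd1 is known for its need in alveolar growth, Cdkn1a is the best known target of p53, and Cdkn2a accumulates in senescent cells.

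The libraries held 2233 to 3536 barcodes and 19982067 to 42012988 UMIs, with a median of 5345 UMIs per barcode in OVX, 8698 for OVX_E2, 8116 for OVX_E2_PBDE, 7861 for OVX_E2_P4 and 5348 for OVX_E2_P4_PBDE. Pairs of libraries shared 3 to 15 barcode sequences, 0.134% to 0.483% of the smaller library. OVX had no cycling class, and its L-Alv class held 32 barcodes against 129 to 563 in the other libraries. Basal barcodes numbered 61 to 148 per library, and in OVX_E2_P4_PBDE they stood apart, with Krt18, a luminal keratin, at 2002 CPM against 411 to 679 in the other 4 libraries and Acta2, the smooth muscle actin of myoepithelial cells, at 3308 CPM against 6228 to 6922. A CPM value is the UMIs of a gene per 1000000 UMIs summed over the barcodes of 1 class in 1 library, and the interval after it is the exact 95% Poisson interval, which covers counting error only and not the spread between animals. A difference between libraries is named only when a gene had at least 50 UMIs over both libraries of the pair, both classes held at least 20 barcodes and the ratio was at least 1.5-fold either way. No p-value can be given with 1 library per group.

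Cdkn1a encodes p21, which binds and inhibits cyclin-CDK2 complexes and the replication clamp PCNA. The gene lies at chr17:29090976-29100727 on the plus strand of GRCm38. RefSeq gives 2 start sites for it on GRCm38.p6, and the 250 bases before each are shown because the p53-type spacing and the GC boxes sit before different starts. In the first, capitals mark CATGNNNNNNCATG, the core of a p53 element, 48 bases before the start. In the second, capitals mark GGGCGG, the GC box that Sp factors bind, 104 and 46 bases before the start. The first is chr17:29090729-29090978 and the second chr17:29093519-29093768, both on the plus strand.
Cdkn1a first start: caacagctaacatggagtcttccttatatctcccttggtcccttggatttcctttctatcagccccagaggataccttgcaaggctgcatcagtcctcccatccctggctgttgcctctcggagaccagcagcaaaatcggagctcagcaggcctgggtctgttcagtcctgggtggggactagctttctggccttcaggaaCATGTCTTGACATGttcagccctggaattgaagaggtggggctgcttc
Cdkn1a second start: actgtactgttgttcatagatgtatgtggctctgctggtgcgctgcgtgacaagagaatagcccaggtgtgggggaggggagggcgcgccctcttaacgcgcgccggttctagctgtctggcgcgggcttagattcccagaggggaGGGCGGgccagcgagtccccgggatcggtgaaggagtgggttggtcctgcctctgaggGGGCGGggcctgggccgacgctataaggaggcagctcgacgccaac
Searched on both strands, CATGNNNNNNCATG was present in 0.490% of all 32851 RefSeq promoter windows of this length and GGGCGG in 32.7%. The first window was 54.0% GC with 2 CG dinucleotides and the second 64.8% GC with 19, against medians of 52.4% and 6 over all windows. A match is a description of the letters and not a binding site, and counts at the 3′ end cannot say which start was used.

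In L-Hor barcodes, Cdkn1a was at 129 CPM (105 to 157) in OVX, 268 (254 to 282) in OVX_E2, 296 (283 to 308) in OVX_E2_PBDE, 329 (316 to 343) in OVX_E2_P4 and 233 (218 to 249) in OVX_E2_P4_PBDE. OVX was the lowest library and its interval lay apart from the other 4. The share of L-Hor barcodes with a Cdkn1a UMI, after each barcode was thinned to 3000 UMIs, was 22.8%, 42.5%, 47.5%, 49.8% and 42.9% in the same order of libraries, where the unthinned shares were 54.3%, 66.8%, 76.4%, 75.8% and 59.0%. Thinned fibroblasts gave 35.5% in OVX and 19.2% to 21.6% in the other 4 libraries, at median depths of 4252 to 7031.5 UMIs against 5557 to 10460 in L-Hor. No class lacked the gene.

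The opposite order of OVX and the hormone-treated libraries appeared outside the L-Hor class. Basal Cdkn1a was at 715 CPM (636 to 802) in OVX, 201 (174 to 231) in OVX_E2, 192 (163 to 225) in OVX_E2_PBDE, 155 (136 to 177) in OVX_E2_P4 and 246 (214 to 280) in OVX_E2_P4_PBDE. Fibroblast Cdkn1a was at 211 CPM (203 to 219), 101 (93.9 to 109), 91.8 (86.9 to 97), 109 (101 to 118) and 109 (99.4 to 120) in that order. In both classes OVX stood above all 4 hormone-treated libraries with no overlap of intervals. The L-Alv class gave 379 CPM (304 to 467) in OVX from 88 UMIs, then 313 (289 to 338), 242 (224 to 261), 246 (234 to 258) and 254 (226 to 285). Cycling barcodes gave 159 CPM (147 to 173) in OVX_E2, 234 (208 to 263) in OVX_E2_PBDE, 187 (170 to 205) in OVX_E2_P4 and 202 (167 to 241) in OVX_E2_P4_PBDE.

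Against OVX, the OVX_E2 library thus had Cdkn1a higher in L-Hor by 2.07-fold (conditional 95% interval 1.69 to 2.56), lower in basal barcodes at 0.281 of the OVX level (0.234 to 0.338) and lower in fibroblasts at 0.481 (0.442 to 0.524), while the L-Alv ratio of 0.826 did not pass 1.5-fold. A list of immediate early and heat shock genes, markers of dissociation stress, moved with this comparison in the same direction as Cdkn1a in basal barcodes and fibroblasts and opposite to it in L-Hor: its summed level was 14347 CPM in OVX against 7092 for OVX_E2 in basal barcodes, 14582 against 10988 in fibroblasts, and 10034 against 7182 in L-Hor. In basal barcodes 11 of the 12 measured stress genes were lower in OVX_E2 past 1.5-fold, where 686 of all 3135 genes measured were lower. Their part in the Cdkn1a difference was not tested. A list of p53 and its other targets summed to 682 CPM in L-Hor of OVX and 819 for OVX_E2. Of the 10 measured, Ccng1, Bax, Phlda3 and Plk2 were higher and Trp53 lower, named after their values were seen. Of all 7450 genes measured there, 503 were higher and 1781 lower. The list gave 0 higher and 3 lower of 8 in L-Alv, 1 and 2 of 6 in basal barcodes and 2 and 0 of 11 in fibroblasts. Of all genes 32.1%, 39.2% and 13.5% passed in these classes. In fibroblasts the same list summed to 816 and 716 CPM.

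**Figure D1:**
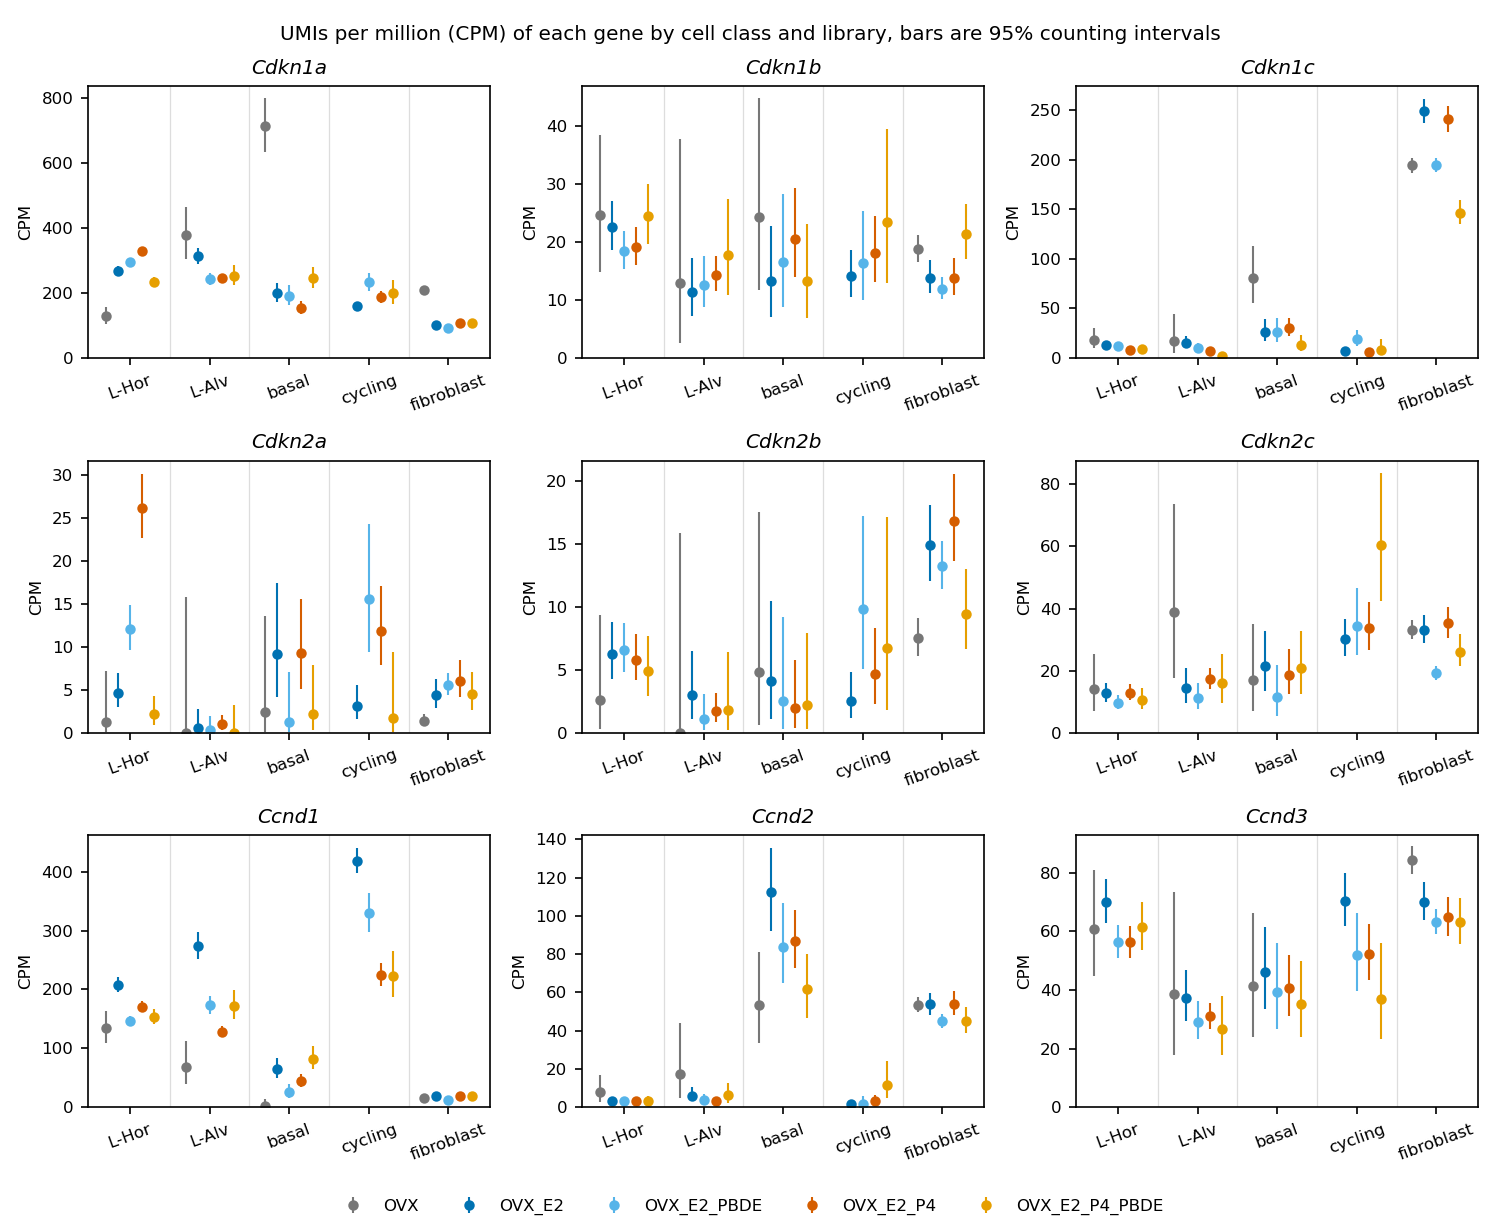
Level (UMIs per 1000000, CPM, y axis) of each of the 9 genes by cell class (x axis) in the 5 libraries (colors), with bars for the exact 95% Poisson intervals. Cdkn1a in basal barcodes and fibroblasts was highest in OVX, Cdkn1c and Cdkn2b were highest in fibroblasts of every library, and Ccnd1 was highest in cycling barcodes of the 4 libraries that had them.

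Cdkn1b encodes p27, the inhibitor that holds resting cells out of the cycle and is controlled largely through protein turnover. It lies at chr6:134920401-134925513 on the plus strand. Its level in L-Hor was 24.6 CPM in OVX, 22.6 for OVX_E2, 18.4 for OVX_E2_PBDE, 19.1 for OVX_E2_P4 and 24.4 for OVX_E2_P4_PBDE, and L-Hor was the highest class in 4 of the 5 libraries. The other classes overlapped this range, at 11.4 to 17.7 CPM in L-Alv, 13.2 to 24.3 in basal, 14.1 to 23.5 in cycling and 12 to 21.4 in fibroblast barcodes. Only fibroblasts passed the fold rule for this gene: OVX_E2_P4_PBDE, at 21.4 CPM (17.1 to 26.5), was above OVX_E2_P4 at 13.8 (10.9 to 17.3) by 1.55-fold (1.13 to 2.13) and above OVX_E2_PBDE at 12 (10.2 to 13.9) by 1.79-fold (1.36 to 2.33). The ratio to OVX_E2_P4 was 1.47, below 1.5-fold, in 1 of 7 alternative ways of processing. Ratios within groups of fibroblast clusters are given further below. OVX fibroblasts, at 18.7 CPM (16.5 to 21.2), overlapped OVX_E2_P4_PBDE.

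Cdkn1c encodes p57, an imprinted inhibitor of the same family, and lies at chr7:143458339-143461050 on the minus strand. It was a fibroblast gene in these libraries, at 194 CPM (187 to 202) in OVX, 249 (237 to 261) in OVX_E2, 195 (187 to 202) in OVX_E2_PBDE, 241 (228 to 254) in OVX_E2_P4 and 147 (135 to 159) in OVX_E2_P4_PBDE. OVX_E2 and OVX_E2_P4 formed the high pair, OVX and OVX_E2_PBDE the middle pair, and OVX_E2_P4_PBDE the low library, and the members of each pair overlapped. OVX_E2_P4_PBDE was at 0.609 of OVX_E2_P4 (0.552 to 0.671), and OVX_E2 was at 1.28 of OVX (1.20 to 1.36), which did not pass 1.5-fold. The thinned share of fibroblasts with a UMI was 38.2%, 40.8%, 34.6%, 40.1% and 29.4% in the order OVX, OVX_E2, OVX_E2_PBDE, OVX_E2_P4 and OVX_E2_P4_PBDE.

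In L-Hor, Cdkn1c was at 18.1, 13.5, 12.1, 7.85 and 8.94 CPM in that order, which is 9.32%, 5.41%, 6.20%, 3.26% and 6.09% of the fibroblast level of the same library. The fibroblast marker list, made of genes that luminal cells should lack, stood in L-Hor at 9.18%, 5.47%, 7.08%, 3.76% and 6.10% of its fibroblast level. The Cdkn1c percent of L-Hor barcodes was thus near that of the fibroblast markers in each library. The L-Hor Cdkn1c ratio between OVX_E2_P4 and OVX_E2 was 0.584 (0.404 to 0.84), and the part of fibroblast RNA in it was not tested. The L-Alv level of 1.77 to 17.2 CPM, from 2 to 47 UMIs, was 8.86%, 6.20%, 5.42%, 3.13% and 1.21% of the fibroblast level in the same order of libraries. The fibroblast markers gave 6.61%, 3.31%, 4.40%, 2.47% and 4.91% in L-Alv. The Cdkn1c percent was above that of the markers in each library but OVX_E2_P4_PBDE. The L-Alv Cdkn1c ratio between OVX_E2_P4 and OVX_E2 was 0.490 (0.305 to 0.797), and the part of fibroblast RNA in it was not tested. Basal barcodes were above the marker percent in each library, at 41.3%, 10.7%, 13.7%, 12.4% and 9.01% of the fibroblast level where the fibroblast markers gave 10.2%, 4.15%, 4.17%, 4.06% and 4.25%. Basal Cdkn1c was at 80.3 CPM (55.3 to 113) in OVX, from 33 UMIs, against 26.6 for OVX_E2, 26.7 for OVX_E2_PBDE, 29.9 for OVX_E2_P4 and 13.2 for OVX_E2_P4_PBDE, from 12 to 45 UMIs. OVX_E2 was at 0.331 of OVX (0.19 to 0.57) and OVX_E2_P4_PBDE at 0.442 of OVX_E2_P4 (0.213 to 0.85).

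Cdkn2a, at chr4:89274471-89294653 on the minus strand, encodes 2 unrelated proteins: p16Ink4a, a CDK4 and CDK6 inhibitor, and p19Arf, which stabilizes p53. Their transcripts start at different first exons, chr4:89281986-89282192 for p16Ink4a and chr4:89294334-89294653 for p19Arf, and share exon 2 at chr4:89276645-89276985 and the last exon, so the 3′ counts cannot tell them apart. The 210 bases that end 40 bases before each RefSeq start are shown because the starts differ in base composition. Both are on the minus strand of GRCm38.p6, the p16Ink4a window at chr4:89282233-89282442 and the p19Arf window at chr4:89294660-89294869. Capitals mark GGTCA, the core of the estrogen receptor half-site, in the first and GGGCGG in the second.
Cdkn2a p16Ink4a window: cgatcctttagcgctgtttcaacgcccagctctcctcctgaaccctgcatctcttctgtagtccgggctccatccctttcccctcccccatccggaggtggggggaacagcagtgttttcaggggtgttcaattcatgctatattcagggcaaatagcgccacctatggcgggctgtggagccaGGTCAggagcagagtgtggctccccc
Cdkn2a p19Arf window: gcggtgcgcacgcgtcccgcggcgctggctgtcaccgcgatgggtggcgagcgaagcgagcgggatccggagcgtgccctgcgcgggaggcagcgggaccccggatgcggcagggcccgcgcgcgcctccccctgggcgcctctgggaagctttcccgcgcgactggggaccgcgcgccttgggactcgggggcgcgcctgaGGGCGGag
The p16Ink4a window was 58.6% GC with 7 CG dinucleotides and the p19Arf window 79.0% GC with 35. GGTCA was 66 bases before the p16Ink4a start, and the letters are common, in 35.2% of all promoter windows on either strand. GGGCGG stood 48 and 14 bases before the p19Arf start, the nearer one past the end of the window shown, and TTTCCCGC, an E2F motif present in 0.895% of all windows, stood 99 bases before it, in lower case here.

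In L-Hor, Cdkn2a was at 1.29 CPM (0.0328 to 7.21) in OVX from 1 UMI, 4.68 (3 to 6.96) in OVX_E2 from 24 UMIs, 12.1 (9.65 to 14.9) in OVX_E2_PBDE from 86 UMIs, 26.3 (22.7 to 30.2) in OVX_E2_P4 from 194 UMIs and 2.17 (0.936 to 4.27) in OVX_E2_P4_PBDE from 8 UMIs. OVX_E2_P4 was the highest library, OVX_E2_PBDE the next, and both lay apart from the other 3, which overlapped each other. OVX_E2_P4 was 5.61-fold above OVX_E2 (3.66 to 8.97) and OVX_E2_PBDE 2.58-fold above OVX_E2 (1.62 to 4.24). OVX_E2_P4_PBDE, which received both progesterone and PBDEs, was at 0.0825 of OVX_E2_P4 (0.0351 to 0.166) and at 0.180 of OVX_E2_PBDE (0.0752 to 0.37).

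The 2 highest libraries were the same per barcode, though the interval of OVX, with 92 barcodes, was wide. At 3000 UMIs per barcode, the share of L-Hor barcodes with a Cdkn2a UMI was 1.09% (exact binomial interval 0.0275% to 5.91%) in OVX, 1.24% (0.455% to 2.67%) in OVX_E2, 4.27% (2.81% to 6.19%) in OVX_E2_PBDE, 5.94% (4.37% to 7.87%) in OVX_E2_P4 and 0.664% (0.181% to 1.69%) in OVX_E2_P4_PBDE. Without thinning the shares were 1.09%, 3.09%, 8.70%, 11.6% and 1.16%. L-Alv barcodes, which held 0 to 6 Cdkn2a UMIs per library, gave thinned shares of 0% to 0.498% at median depths of 5511.5 to 11570.5 UMIs. The L-Alv level was 0 CPM in OVX, where 3 counts would be 12.9 CPM, 0.498 for OVX_E2, 0.352 for OVX_E2_PBDE, 0.964 for OVX_E2_P4 and 0 for OVX_E2_P4_PBDE, where 3 counts would be 2.66 CPM. The UMIs were spread over 53 barcodes in OVX_E2_PBDE and 88 for OVX_E2_P4, with the 5 highest barcodes holding 22.1% and 17.0% of them. At a finer clustering, the L-Hor clusters gave 26.7 and 25.8 CPM in OVX_E2_P4, 11 and 13.9 for OVX_E2_PBDE, 3.99 and 6.48 for OVX_E2, and 1.10 and 3.23 for OVX_E2_P4_PBDE.

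L-Hor held 313 Cdkn2a UMIs over the 5 libraries, fibroblasts 179, cycling barcodes 59, basal barcodes 27 and L-Alv 8. L-Hor was the highest class by CPM in OVX_E2_P4 alone, and the highest was basal in OVX and OVX_E2, cycling in OVX_E2_PBDE and fibroblast in OVX_E2_P4_PBDE. Cycling barcodes had 3.11 CPM in OVX_E2 from 11 UMIs, 15.6 for OVX_E2_PBDE from 19, 11.8 for OVX_E2_P4 from 28 and 1.68 for OVX_E2_P4_PBDE from 1. Basal barcodes had 2.43, 9.19, 1.27, 9.29 and 2.20 CPM in the order OVX, OVX_E2, OVX_E2_PBDE, OVX_E2_P4 and OVX_E2_P4_PBDE, from 1 to 14 UMIs per library. Fibroblasts were at 1.38 CPM in OVX, 4.36 for OVX_E2, 5.56 for OVX_E2_PBDE, 6.04 for OVX_E2_P4 and 4.48 for OVX_E2_P4_PBDE, a narrower range than in L-Hor. As a share of all UMIs of the 3 INK4 genes in L-Hor, Cdkn2a made up 7.14% in OVX, 19.8% (13.1% to 28.1%) in OVX_E2, 42.6% (35.7% to 49.7%) in OVX_E2_PBDE, 58.4% (52.9% to 63.8%) in OVX_E2_P4 and 12.3% (5.47% to 22.8%) in OVX_E2_P4_PBDE.

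**Figure D2:**
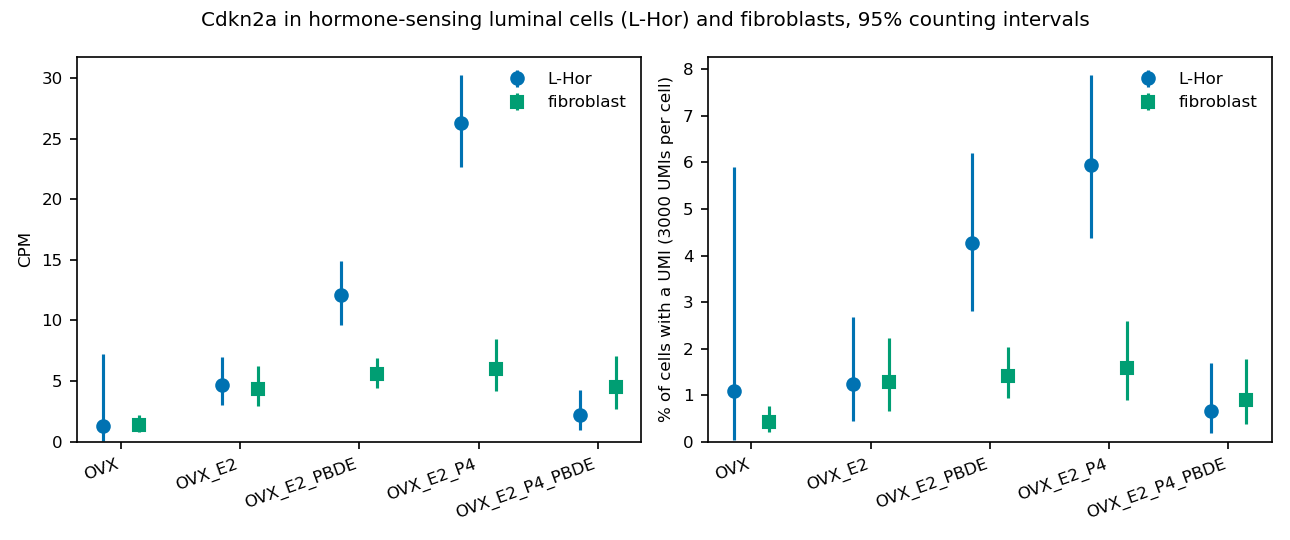
Cdkn2a in L-Hor barcodes and fibroblasts of the 5 libraries (x axis), as UMIs per 1000000 (CPM, left) and as the percent of barcodes with a UMI after thinning to 3000 UMIs each (right), with 95% counting intervals. L-Hor was highest in OVX_E2_P4 at 26.3 CPM and next in OVX_E2_PBDE at 12.1 CPM, while fibroblasts stayed between 1.38 and 6.04 CPM.

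Cdkn2b encodes p15, an INK4 inhibitor induced by TGF-beta, next to Cdkn2a at chr4:89306299-89311039 on the minus strand. It was highest in fibroblasts of all 5 libraries, at 7.50 CPM (6.12 to 9.1) in OVX, 14.9 (12.1 to 18.1) in OVX_E2, 13.2 (11.4 to 15.3) in OVX_E2_PBDE, 16.9 (13.6 to 20.6) in OVX_E2_P4 and 9.47 (6.7 to 13) in OVX_E2_P4_PBDE. OVX and OVX_E2_P4_PBDE were the low pair. OVX_E2 was 1.99-fold above OVX (1.49 to 2.64) and OVX_E2_P4_PBDE was at 0.561 of OVX_E2_P4 (0.375 to 0.826). L-Hor held 2.59 to 6.59 CPM, L-Alv 0 to 2.99, basal 1.99 to 4.87 and cycling barcodes 2.55 to 9.86, so that the neighboring gene did not show the L-Hor order of Cdkn2a: its L-Hor level was 6.59 CPM in OVX_E2_PBDE, 5.82 for OVX_E2_P4 and 4.88 for OVX_E2_P4_PBDE.

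Cdkn2c encodes p18, a further INK4 inhibitor of CDK4 and CDK6, and lies at chr4:109660876-109667189 on the minus strand. In cycling barcodes it was at 30.3 CPM (24.8 to 36.6) in OVX_E2, 34.5 (24.9 to 46.6) in OVX_E2_PBDE, 33.8 (26.8 to 42) in OVX_E2_P4 and 60.5 (42.3 to 83.7) in OVX_E2_P4_PBDE. This was 2.39 to 5.72 times the L-Hor level of the same library, and OVX_E2_P4_PBDE passed the fold rule over OVX_E2_P4, at 1.79-fold (1.17 to 2.69), and over OVX_E2_PBDE, at 1.75-fold (1.09 to 2.8). Those cycling values of OVX_E2_P4_PBDE come from 33 barcodes and 36 Cdkn2c UMIs. Fibroblasts were at 33.0 CPM in OVX, 33.1 for OVX_E2, 19.1 (16.9 to 21.5) in OVX_E2_PBDE, 35.3 for OVX_E2_P4 and 26.2 for OVX_E2_P4_PBDE. This was near the cycling level in OVX_E2 and OVX_E2_P4 and below it in OVX_E2_PBDE and OVX_E2_P4_PBDE. Fibroblasts of OVX_E2_PBDE were at 0.577 of OVX_E2 (0.481 to 0.692). L-Hor ranged from 9.68 to 14.2 CPM, basal barcodes from 11.5 to 21.5 and L-Alv from 11.3 to 38.7, where the highest L-Alv value was 9 UMIs in the 32 barcodes of OVX.

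Ccnd1, the main cyclin D of mammary epithelium, lies at chr7:144929931-144939925 on the minus strand. In L-Hor it was at 135 CPM (110 to 163) in OVX, 208 (196 to 221) in OVX_E2, 146 (137 to 155) in OVX_E2_PBDE, 171 (161 to 180) in OVX_E2_P4 and 153 (141 to 166) in OVX_E2_P4_PBDE. OVX_E2 was the highest library and lay apart from the others. It was 1.54-fold above OVX (1.26 to 1.91), while OVX_E2_P4 was at 0.821 and OVX_E2_PBDE at 0.703 (0.644 to 0.766) of the OVX_E2 level, neither past 1.5-fold.

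L-Alv barcodes showed a wider range, with Ccnd1 at 68.9 CPM (39.4 to 112) in OVX, 274 (251 to 298) in OVX_E2, 173 (158 to 189) in OVX_E2_PBDE, 128 (120 to 138) in OVX_E2_P4 and 173 (149 to 199) in OVX_E2_P4_PBDE. OVX_E2 was again the highest, 3.97-fold above OVX (2.43 to 7.0), where the OVX value rests on 16 UMIs and the ratio was 1.6 once multiplet clusters were added back. OVX_E2_P4 was at 0.469 of OVX_E2 (0.42 to 0.524) and OVX_E2_PBDE at 0.632 of OVX_E2 (0.559 to 0.715). The ratio of OVX_E2_P4_PBDE to OVX_E2_P4, 1.35 (1.14 to 1.58), did not pass, and that to OVX_E2_PBDE was 0.999 (0.842 to 1.18).

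Cycling barcodes had the highest Ccnd1 of the 5 classes in each library that held them, at 418 CPM (397 to 440) in OVX_E2, 329 (298 to 363) in OVX_E2_PBDE, 225 (206 to 245) in OVX_E2_P4 and 223 (187 to 265) in OVX_E2_P4_PBDE. Both libraries with progesterone were below both without it. OVX_E2_P4 was at 0.538 of OVX_E2 (0.487 to 0.595), and the ratio of OVX_E2_P4_PBDE to OVX_E2_PBDE was 0.678 (0.553 to 0.827), which did not pass 1.5-fold. Within a library, the cycling level was 2.01 (1.86 to 2.18), 2.26 (2.01 to 2.53), 1.32 (1.19 to 1.46) and 1.46 (1.20 to 1.77) times that of L-Hor in OVX_E2, OVX_E2_PBDE, OVX_E2_P4 and OVX_E2_P4_PBDE. Cycling barcodes were deep, with medians of 15844 to 28531.5 UMIs, and held both luminal programs, L-Hor markers at 2109 to 3797 CPM and L-Alv markers at 3597 to 7904 CPM. Against the multiplet clusters, which had medians of 15341 to 25552 UMIs in the same 4 libraries, the cycling Ccnd1 ratio was 1.72 (1.61 to 1.83), 1.79 (1.61 to 1.99), 1.38 (1.25 to 1.53) and 1.01 (0.842 to 1.21). The part of mixed barcodes in the cycling level was not tested further.

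Basal barcodes had Ccnd1 at 2.43 CPM in OVX from 1 UMI, 65.4 (50.3 to 83.5) in OVX_E2, 25.5 (15.5 to 39.3) in OVX_E2_PBDE, 45.1 (35 to 57.2) in OVX_E2_P4 and 82.6 (65 to 104) in OVX_E2_P4_PBDE. The ratio of OVX_E2 to OVX was 26.9, with a counting interval of 4.65 to 1078 because the OVX count was 1. OVX_E2_PBDE was at 0.389 of OVX_E2 (0.223 to 0.652), and OVX_E2_P4_PBDE was 3.24-fold above OVX_E2_PBDE (1.96 to 5.61) and 1.83-fold above OVX_E2_P4 (1.3 to 2.58). Luminal markers moved with some of these values and not with others. The L-Hor marker list summed in basal barcodes to 60.8, 333, 190, 394 and 1110 CPM in the order OVX, OVX_E2, OVX_E2_PBDE, OVX_E2_P4 and OVX_E2_P4_PBDE. The L-Alv list summed to 375, 392, 377, 522 and 1964 CPM in that order. Both lists and Ccnd1 were lower in OVX_E2_PBDE than in OVX_E2. All were higher in OVX_E2_P4_PBDE than in OVX_E2_P4 and OVX_E2_PBDE. From OVX_E2 to OVX_E2_P4 both lists were higher and the Ccnd1 ratio was 0.690 (0.483 to 0.987), which did not pass 1.5-fold. From OVX to OVX_E2 Ccnd1 was higher, the L-Hor list went from 60.8 to 333 CPM and the L-Alv list from 375 to 392 CPM. The part of luminal RNA in basal Ccnd1 was not tested. With a mitochondrial limit of 5% in place of 10%, the basal ratio of OVX_E2_PBDE to OVX_E2 turned to 1.45. The ratio of OVX_E2_P4_PBDE to OVX_E2_PBDE was then 1.02 and that of OVX_E2_P4_PBDE to OVX_E2_P4 was 1.26, so that none of these 3 is read as a difference. Fibroblasts were at 12.1 to 19.7 CPM, lowest in OVX_E2_PBDE, which was at 0.655 of OVX_E2 (0.516 to 0.832) and below OVX_E2_P4_PBDE by a ratio that read 1.58 (1.19 to 2.08) for the latter. Luminal markers in fibroblasts were at 4.58% of their L-Hor level in OVX_E2, 3.6% in OVX_E2_PBDE and 6.53% in OVX_E2_P4_PBDE, moving with both ratios, where fibroblast Ccnd1 was at 8.90%, 8.30% and 12.5% of its L-Hor level. The part of luminal RNA in fibroblast Ccnd1 was not tested.

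Ccnd2, at chr6:127125162-127152193 on the minus strand, encodes cyclin D2, a partner of the same kinases. Among the 5 classes it was a basal and fibroblast gene. Basal barcodes had 53.5 CPM in OVX from 22 UMIs, 112 (92.3 to 135) in OVX_E2, 84.0 for OVX_E2_PBDE, 86.9 for OVX_E2_P4 and 61.7 for OVX_E2_P4_PBDE, and OVX_E2 was 2.10-fold above OVX (1.32 to 3.49). Fibroblasts varied little, at 53.5, 53.9, 45, 54.2 and 45.3 CPM in the same order. L-Hor, at 3.25 to 7.76 CPM, held 6.15% to 14.5% of the fibroblast level, where the fibroblast markers gave 3.76% to 9.18%. The Ccnd2 percent was above that of the markers in each library, from 7.48% against 7.08% in OVX_E2_PBDE to 14.5% against 9.18% in OVX. These L-Hor levels rest on 85 Ccnd2 UMIs over the 5 libraries, with 12 to 26 in each of the 4 hormone-treated ones. The gap was not set against their counting error. The part of RNA from other cells in it was not tested. L-Alv was at 3.05 to 17.2 CPM and cycling barcodes at 1.64 to 11.8. Outside the 5 classes, endothelial barcodes had the most, 226 to 425 CPM, and hematopoietic barcodes had 79.4 to 134.

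Ccnd3, at chr17:47505051-47599691 on the plus strand and overlapped on the other strand by Bysl, encodes cyclin D3, a widely expressed member of the family. It was present in all 5 classes at 26.6 to 84.1 CPM and passed the fold rule in no class and no comparison. Fibroblasts had 84.1 CPM (79.4 to 89.1) in OVX, 70.1 for OVX_E2, 63.3 for OVX_E2_PBDE, 64.8 for OVX_E2_P4 and 63.0 for OVX_E2_P4_PBDE. L-Hor had 60.8, 70.0, 56.4, 56.2 and 61.5 CPM in that order. L-Alv, at 26.6 to 38.7 CPM, and basal barcodes, at 35.2 to 46.0, were below both. Cycling barcodes, at 37.0 to 70.4 CPM, were not above L-Hor, with ratios of 1.01, 0.918, 0.932 and 0.601 (0.369 to 0.932) in OVX_E2, OVX_E2_PBDE, OVX_E2_P4 and OVX_E2_P4_PBDE. Over L-Alv the ratios were 1.89 (1.45 to 2.48), 1.77 (1.26 to 2.49), 1.69 (1.34 to 2.13) and 1.39 (0.764 to 2.49) in that order. Over the multiplet clusters they were 1.20 (1.03 to 1.40), 1.13, 1.08 and 0.723 (0.448 to 1.11).

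The 3 cyclins divided by lineage. A UMI is counted once per captured 3′ end, so shares between genes are independent of transcript length but not of how well each end is captured. Ccnd1 made up 66.2% to 74.1% of D-cyclin UMIs in L-Hor, 79.0% to 86.3% in L-Alv of the 4 hormone-treated libraries, 55.2% (35.7% to 73.6%) in L-Alv of OVX, and 80.2% to 86.1% in cycling barcodes. Ccnd3 was the next in luminal classes, with 24.4% to 29.9% in L-Hor, and Ccnd2 made up 1.18% to 3.82% there. In fibroblasts the order was turned, with Ccnd3 at 46.7% to 54.6%, Ccnd2 at 34.7% to 39.1% and Ccnd1 at 10.1% to 15%. Basal barcodes were led by Ccnd2, at 55%, 50.2%, 56.4% and 50.4% in OVX, OVX_E2, OVX_E2_PBDE and OVX_E2_P4, while in OVX_E2_P4_PBDE, the library with luminal markers in its basal class, Ccnd2 was 34.4% and Ccnd1 46.0% (38.2% to 54.0%). Among Cip/Kip UMIs Cdkn1a made up 75.2% to 92.4% in L-Hor and 27.9% to 49.7% in fibroblasts, where Cdkn1c made up 45.9% to 68.3%.

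**Figure D3:**
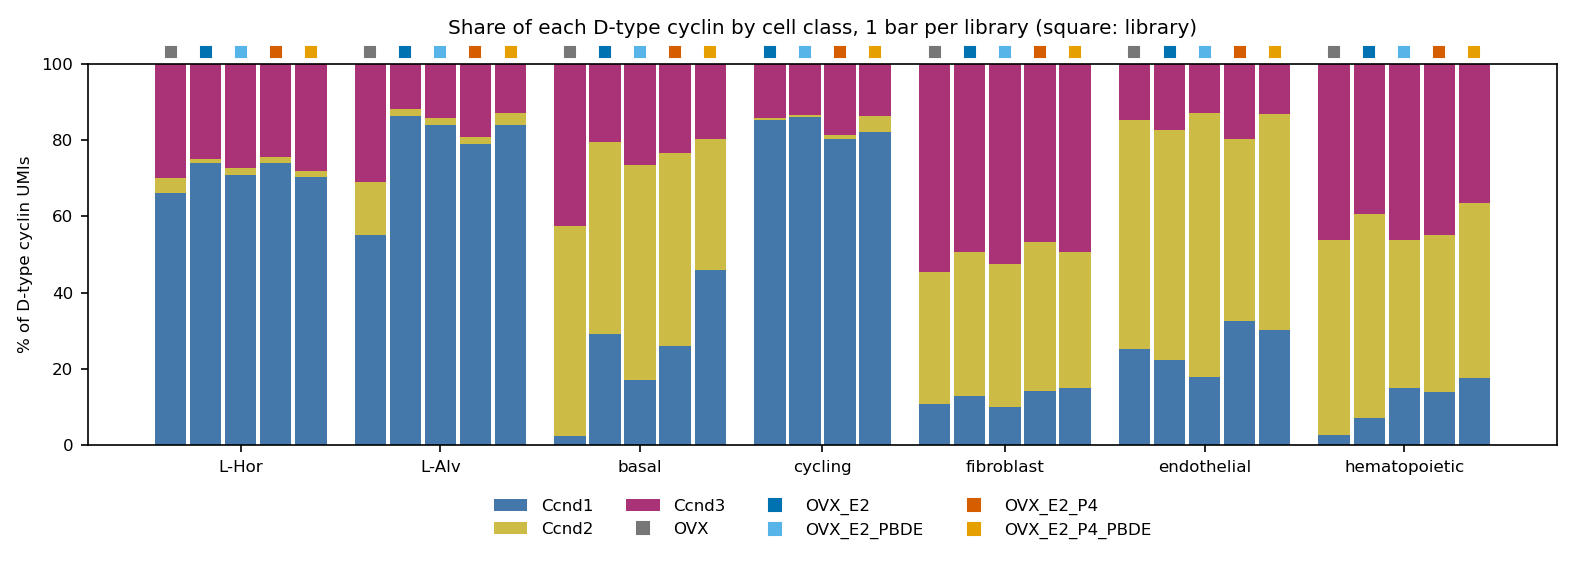
Percent of D-type cyclin UMIs (y axis) that were Ccnd1, Ccnd2 and Ccnd3 in each cell class, with 1 bar per library, the squares giving its color. Ccnd1 was the largest share in L-Hor, L-Alv and cycling bars, Ccnd3 in fibroblast bars and Ccnd2 in endothelial bars, at 47.7% to 69.3%.

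Fibroblasts were not uniform for these genes. The fibroblast clusters were grouped, after the data were seen, into those whose first leading gene was Pi16, an adventitial fibroblast gene, those with Mfap4, an elastic fiber gene, among their 3 leading genes (Mfap4-led in what follows), and the others. The grouping did not mean the same in each library. Mfap4 was at 483 CPM in the Mfap4-led cluster of OVX, where Spon1 came first, and at 402 CPM in that of OVX_E2_P4_PBDE, where Col1a1 and Col3a1 came first, against 1241, 1286 and 1746 CPM in those of OVX_E2, OVX_E2_PBDE and OVX_E2_P4. In OVX_E2_PBDE the other clusters held Pi16 as well, at 2549.6 CPM, against 306 to 510.3 CPM in the other clusters of OVX, OVX_E2 and OVX_E2_P4. Cdkn2a was at 0.262 to 1.70 CPM in Pi16-led clusters and at 8.98 CPM in OVX, 18.6 for OVX_E2, 33.6 for OVX_E2_PBDE, 21.3 for OVX_E2_P4 and 12.1 for OVX_E2_P4_PBDE in Mfap4-led ones, on 121 UMIs in all. Cdkn2b was at 2.34 to 4.77 CPM in Pi16-led clusters and at 49.4, 59.9, 55.9, 86.5 and 22.3 CPM in Mfap4-led ones in that order of libraries. Cdkn2c was at 9.0 to 14 CPM in Pi16-led clusters and at 175, 97.9, 75.0, 87.8 and 62.2 CPM in Mfap4-led ones. All 3 INK4 genes were thus higher in Mfap4-led clusters in each library, by 7.09 to 34.3 times for Cdkn2a, 4.68 to 37.0 for Cdkn2b and 4.81 to 14.4 for Cdkn2c. The highest Cdkn2a ratio, in OVX, rests on 4 against 2 UMIs (4.92 to 379), and the highest Cdkn2b ratio, in OVX_E2_P4, on 65 against 7 UMIs (17.0 to 95.6). These genes were kept out of the genes used for clustering, though genes that go with them were not, so the contrast is a description.

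Cdkn1c in the Mfap4-led clusters was at 260 CPM in OVX, 565 for OVX_E2, 497 for OVX_E2_PBDE, 564 for OVX_E2_P4 and 212 for OVX_E2_P4_PBDE against 244, 200, 171, 167 and 123 in Pi16-led ones, or 1.07 to 3.37 times. It was thus also higher in the Mfap4-led clusters of each hormone-treated library. The OVX ratio of 1.07 had an interval of 0.878 to 1.29, which includes 1. Cdkn1a went the other way, at 47.1, 57.4, 34.7, 30.6 and 75.2 CPM in Mfap4-led and 184, 118, 121, 144 and 122 CPM in Pi16-led clusters, a ratio of 0.213 to 0.617. The Mfap4-led clusters held 104 of 2563 fibroblasts in OVX, 171 of 936 for OVX_E2, 285 of 1918 for OVX_E2_PBDE, 123 of 949 for OVX_E2_P4 and 228 of 888 for OVX_E2_P4_PBDE. The part of this share in the class levels was not tested.

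Within the cluster groups some differences between libraries kept the direction of the whole class and others did not. Cdkn2b in OVX_E2 against OVX was 0.894 (0.422 to 1.80) in Pi16-led, 1.21 (0.744 to 2.05) in Mfap4-led and 1.08 (0.527 to 2.04) in the other clusters, where the whole class gave 1.99. Cdkn1a in the same comparison was 0.645 (0.581 to 0.714) in Pi16-led, 0.328 (0.264 to 0.403) in the other and 1.22 (0.740 to 2.09) in Mfap4-led clusters. Cdkn1c was 2.17-fold higher in OVX_E2 than in OVX in Mfap4-led clusters (1.78 to 2.67). It was lower in the same comparison in Pi16-led clusters, at 0.819 (0.755 to 0.889), and in the other clusters, at 0.734 (0.590 to 0.905). In OVX_E2_P4_PBDE against OVX_E2_P4, Mfap4-led clusters gave 0.375 (0.318 to 0.442) for Cdkn1c, 0.258 (0.154 to 0.417) for Cdkn2b and 2.46 (1.53 to 4.09) for Cdkn1a, while Pi16-led clusters gave 0.734 (0.639 to 0.842) for Cdkn1c, 2.04 (0.770 to 5.97) for Cdkn2b and 0.846 (0.734 to 0.976) for Cdkn1a. For Cdkn1b, that comparison gave 1.35 (0.893 to 2.06) in Pi16-led clusters. It gave 5.06 (1.78 to 19.8) in Mfap4-led ones, from 29 against 4 UMIs. Against OVX_E2_PBDE, Cdkn1b in OVX_E2_P4_PBDE was at 1.44 (0.983 to 2.10) in Pi16-led and 1.49 (0.877 to 2.51) in Mfap4-led clusters. In OVX_E2_P4_PBDE no cluster fell in the other group, so its Mfap4-led cluster is not the counterpart of that of OVX_E2_P4, and the part of cluster makeup in these ratios was not tested. The summed stress genes of the Mfap4-led clusters were at 26964 CPM in OVX, 11791 for OVX_E2, 9819 for OVX_E2_PBDE, 7434 for OVX_E2_P4 and 11626 for OVX_E2_P4_PBDE, and Col1a1 at 2923, 10495, 7966, 10514 and 5163 CPM. The part of the stress genes in these differences was not tested.

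**Figure D4:**
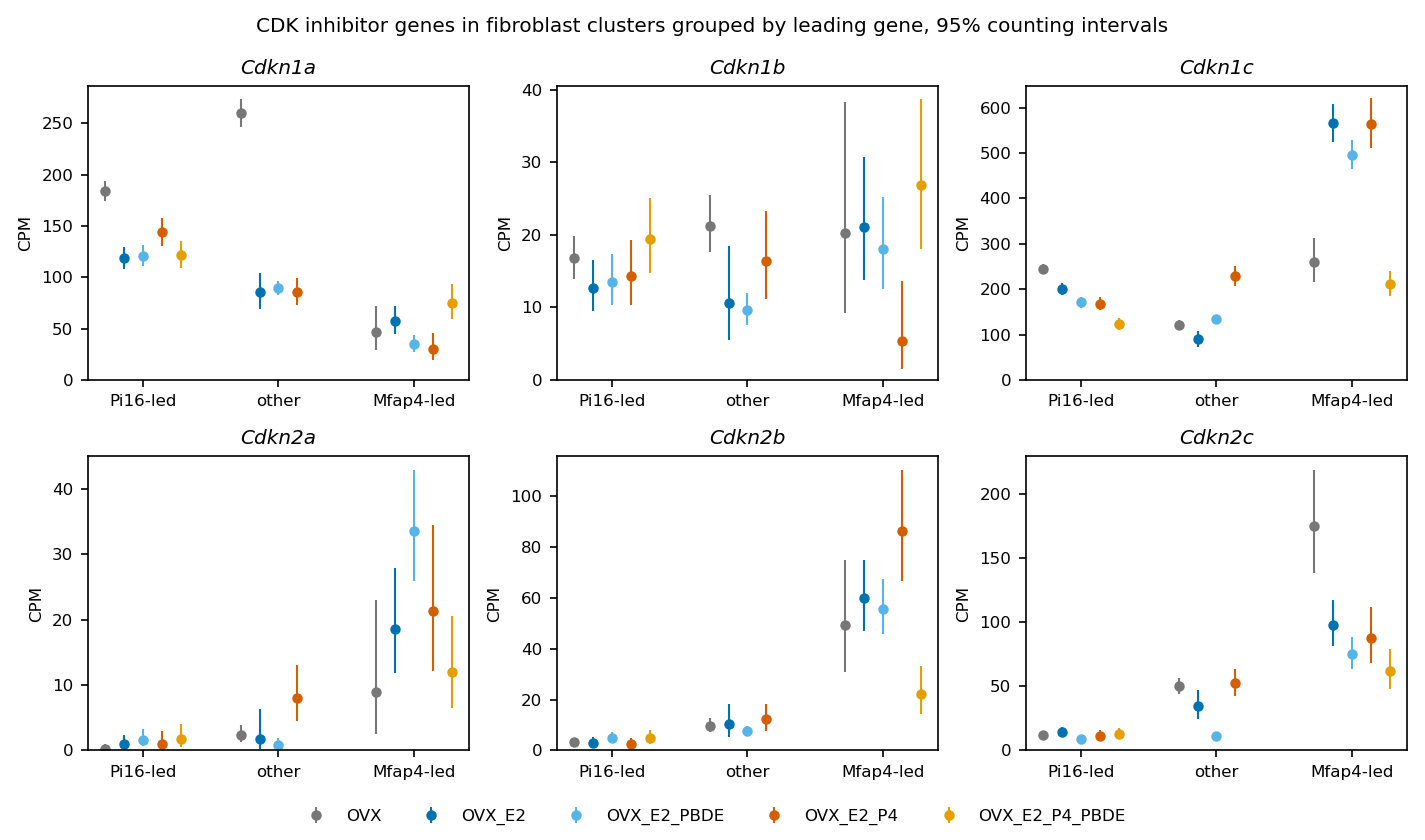
Level (UMIs per 1000000, CPM, y axis) of the 6 CDK inhibitor genes in fibroblast clusters grouped by leading gene (x axis) in the 5 libraries (colors), with 95% Poisson intervals. Cdkn2a, Cdkn2b and Cdkn2c were higher in Mfap4-led than in Pi16-led clusters of every library, and Cdkn1a was lower.

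Counted over classes, the 9 genes gave the following numbers past 1.5-fold, set against the percent of all genes of that class and comparison that passed the same rule. For OVX_E2 against OVX, 9 of 22 gene and class pairs passed, 6 higher and 3 lower. They were 2 of 6 in L-Hor against 30.7% of all genes, 1 of 3 in L-Alv against 32.1%, 4 of 5 in basal barcodes against 39.2% and 2 of 8 in fibroblasts against 13.5%. The L-Hor and L-Alv counts were near the background, the fibroblast count was 1 pair above it and the basal count 2. The median of all genes in L-Hor was itself shifted in this comparison, at -0.26 on the log2 scale, and after scaling by trimmed means the L-Hor log2 ratio was 1.38 for Cdkn1a and 0.96 for Ccnd1.

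For OVX_E2_P4 against OVX_E2, 5 of 33 pairs passed, 1 higher (Cdkn2a in L-Hor) and 4 lower. Of the 4, 2 were Cdkn1c in L-Hor and in L-Alv, where the part of fibroblast RNA was not tested. They were 2 of 8 in L-Hor against 9.60%, 2 of 6 in L-Alv against 12.5%, 0 of 5 in basal barcodes against 14.9%, 1 of 5 in cycling barcodes against 13.8% and 0 of 9 in fibroblasts against 9.24%. For OVX_E2_P4_PBDE against OVX_E2_PBDE, the same hormone step with PBDEs in the food, 5 of 30 passed, 4 higher and 1 lower (Cdkn2a in L-Hor): 1 of 8 in L-Hor against 10.0%, 0 of 5 in L-Alv against 13.0%, 1 of 4 in basal barcodes against 24.2%, 1 of 4 in cycling barcodes against 13.5% and 2 of 9 in fibroblasts against 10.4%. Each of these counts was within 2 pairs of the number its background share would give.

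For OVX_E2_PBDE against OVX_E2, 5 of 32 pairs passed, 1 higher (Cdkn2a in L-Hor) and 4 lower. They were 1 of 8 in L-Hor against 10.0%, 1 of 6 in L-Alv against 11.6%, 1 of 4 in basal barcodes against 14.6%, 0 of 5 in cycling barcodes against 17.8% and 2 of 9 in fibroblasts against 9.40%. For OVX_E2_P4_PBDE against OVX_E2_P4, 8 of 32 passed, 4 higher and 4 lower: 1 of 8 in L-Hor against 13.0%, 0 of 5 in L-Alv against 18.7%, 3 of 5 in basal barcodes against 23.3%, 1 of 5 in cycling barcodes against 20.7% and 3 of 9 in fibroblasts against 12.3%. These counts too were within 2 pairs of their background share, and the comparisons share libraries and are not independent of each other. In the basal class, Cdkn1a was 1.58-fold higher in OVX_E2_P4_PBDE than in OVX_E2_P4 (1.31 to 1.91). Luminal markers in basal barcodes moved with it, from 14% of their L-Hor level in OVX_E2_P4 to 36.1% in OVX_E2_P4_PBDE, and their part was not tested.

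**Figure D5:**
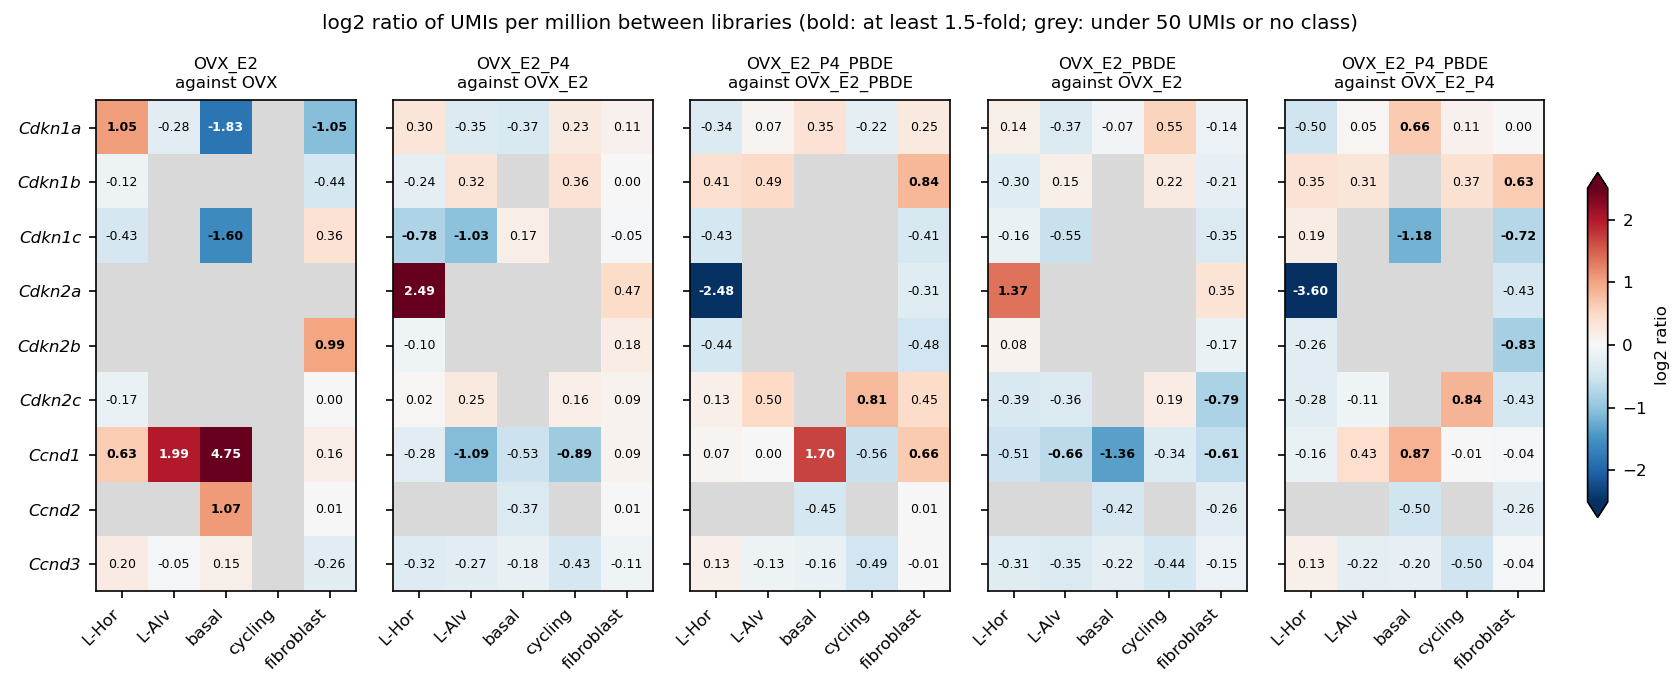
Log2 ratio of CPM between libraries for the 9 genes (rows) in 5 cell classes (columns), 1 panel per comparison, with red for higher and blue for lower in the first-named library, bold for ratios of at least 1.5-fold and grey where a pair had under 50 UMIs or no class. Cdkn2a in L-Hor is red for OVX_E2_P4 and for OVX_E2_PBDE against OVX_E2 and blue in both comparisons of OVX_E2_P4_PBDE.

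Beside the 9 genes stand 81 others in 11 lists, called pathway genes here for short. They are CDKs, other cyclins, retinoblastoma genes, E2F and DP factors, other CDK inhibitors, E2F targets, regulators such as Myc, and p53 and its targets. Lists of TGF-beta response, progesterone and glucocorticoid response and dissociation stress genes, which are not cell cycle genes as such, are also among them. The counts below cover all 81 genes. In L-Hor, 43 had enough UMIs for OVX_E2 against OVX, and 7 were higher and 10 lower past 1.5-fold, where 30.7% of all genes passed, 503 higher and 1781 lower. Myc, a growth-driving transcription factor, was at 0.364 (0.293 to 0.456), Zfp36, which hastens the decay of AU-rich mRNAs, at 0.412 (0.363 to 0.467) and Errfi1, a feedback inhibitor of the EGF receptor, at 0.461 (0.412 to 0.515). Ccng1, a p53 target, was at 1.97 (1.26 to 3.23). The retinoblastoma gene Rb1 went from 1 UMI to 54, a ratio of 8.14 with a counting interval of 1.4 to 327. In OVX_E2_P4 against OVX_E2, 4 of 54 were higher and 1 lower in L-Hor, where 9.60% of all genes passed. Among them Cdkn2d, the fourth INK4 gene, was at 0.591 (0.45 to 0.775) and Rrm2, an S-phase reductase subunit, at 1.80 (1.06 to 3.19).

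With PBDEs in the food, 1 of 51 pathway genes was higher and 5 lower in L-Hor of OVX_E2_P4_PBDE against OVX_E2_PBDE, beside 10.0% of all genes, and Cdkn2d was lower again, at 0.631 (0.445 to 0.879). In that comparison the early response factor Klf6 was at 0.547 (0.514 to 0.581). In OVX_E2_PBDE against OVX_E2, 0 of 54 were higher and 4 lower in L-Hor, beside 10.0% of all genes, with the TGF-beta feedback gene Skil at 0.547, E2f3 at 0.552 and Cdk2 at 0.610. In OVX_E2_P4_PBDE against OVX_E2_P4, 0 of 54 were higher and 10 lower in L-Hor, beside 13.0% of all genes, with Fosb at 0.503, Errfi1 at 0.516 and Smad7 at 0.519. In cycling barcodes of that comparison, 4 of 52 were higher and 19 lower, and these included 7 of 9 E2F targets and 3 of 4 CDK partner genes among the lower, while Cdkn2c was higher. Of all genes in that class and comparison 20.7% passed, 398 higher and 666 lower. The cycling class of OVX_E2_P4_PBDE held 33 barcodes taken from resolution 1.0, and that of OVX_E2_P4 held 114 from resolution 0.5. The part of this choice in the counts was not tested. The summed E2F targets were at 527 CPM in OVX_E2, 362 for OVX_E2_PBDE, 526 for OVX_E2_P4 and 309 for OVX_E2_P4_PBDE in that class.

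In fibroblasts, 4 of 59 pathway genes were higher and 9 lower in OVX_E2 against OVX, where 13.5% of all genes passed. Tgfbi, a secreted TGF-beta target, was at 0.316 (0.28 to 0.355), the heat shock gene Hspa1a at 0.454 (0.423 to 0.487) and Plk2 at 1.71 (1.25 to 2.34). The other comparisons gave 3 higher and 7 lower of 56 for OVX_E2_P4 against OVX_E2, 4 and 2 of 57 for OVX_E2_P4_PBDE against OVX_E2_PBDE, 0 and 5 of 58 for OVX_E2_PBDE against OVX_E2, and 1 and 4 of 51 for OVX_E2_P4_PBDE against OVX_E2_P4, beside 9.24%, 10.4%, 9.40% and 12.3% of all genes in that order. In the last, Hspa1b was at 0.391 and Zbtb16, a progesterone and glucocorticoid target, at 0.626.

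Across the 24 class and library profiles, which share libraries and depth, the pattern of each gene was compared with 9265 other genes by Pearson's r of log2(CPM + 5), as a description. Cdkn1c was most like Mmp2 at 0.970, Plpp3 at 0.968 and Adamts5 at 0.967, all fibroblast-high genes. Among the genes closest to Ccnd1 were Notch3 at 0.952 and Bspry at 0.948. Ccnd2 was most like Sobp and Lhfp, both at 0.967, and Gas1 at 0.965, and Ccnd3 most like Gltp at 0.923, Arl2bp at 0.912 and Eng at 0.907. Cdkn2b reached 0.860 with Pxk, 0.845 with Myof and 0.838 with C1qtnf6, and Cdkn2c 0.828 with Nt5dc2, 0.818 with Pold2 and 0.812 with Tuba1b. The lowest best matches were those of Cdkn2a, 0.644 with Hspb11, 0.630 with Trim24 and 0.623 with Hdac1, of Cdkn1b, 0.727 with Naprt, 0.726 with Usp25 and 0.712 with Skp1a, and of Cdkn1a, 0.784 with Fam110c, 0.761 with Osgin1 and 0.760 with Nfe2l1.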

How the data were processed

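Droplet libraries of mouse mammary cells, 5 in all with 1 per group, were analyzed. The authors deposited raw UMI counts per gene and barcode, with no normalization, and the submitters' processing notes name Cell Ranger 2.0.0 and the mm10 genome. Groups came from the sample labels. Barcodes with at least 500 genes, at least 1000 UMIs and at most 10% mitochondrial UMIs were kept and clustered per library in Seurat 5.3.0 (R 4.3.3, Matrix 1.6.5) with 2000 variable genes, 10 principal components, 20 neighbours and resolution 0.3 for OVX and 0.5 for the others. The 9 genes and the 81 pathway genes were kept out of the variable genes. Clusters were named from markers. Where the L-Alv class of OVX and the L-Alv and cycling classes of OVX_E2_P4_PBDE were not separated, they were taken from resolution 1.0. This choice was made after seeing the data. Clusters holding markers of 2 lineages at high depth were left out as multiplets. Because the classes were rebuilt here, they may differ from those of the study.

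UMIs were summed per class and library (numpy 2.4.6, pandas 2.3.3, scipy 1.17.1) and divided by the class total. Poisson, Clopper-Pearson and conditional binomial intervals at 95% cover counting error only. No test across libraries was possible. A limit for a count of 0 is 3 counts. Shares of barcodes were compared after thinning to 3000 UMIs, leaving out shallower barcodes. The ratio code was tested on simulated data. Figures were drawn with matplotlib 3.10.9. Positions follow GENCODE M21 on GRCm38 and promoter windows RefSeq on GRCm38.p6, which held 10 windows for 6 of the 9 genes and none for Cdkn1c, Ccnd1 and Ccnd2. Motifs searched on both strands were TGTTCT (a progesterone and glucocorticoid receptor half-site, present in 16.1% of all windows), GGTCA (the estrogen receptor half-site), GGGCGG (the GC box), TTTCCCGC and its variant TTTGGCGC (E2F, the latter in 0.417%), CACGTG (the E box, in 6.02%) and CATGNNNNNNCATG (paired p53 cores).

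Named were the 9 genes and, from the pathway lists, up to 3 genes with the largest and up to 3 with the smallest ratio in L-Hor and in fibroblasts per comparison, with exceptions marked. Some genes that this rule names are not reported here. Krt18, Acta2 and Col1a1 were added after their values were seen. The 9 genes and the lists were chosen with earlier results of these data known. Alternatives were multiplets added back, removal of the 20% of barcodes with the highest Scrublet scores (scanpy 1.11.5), a mitochondrial limit of 5%, resolution 1.0, mean per-barcode CPM, a total without mitochondrial and ribosomal protein genes, TMM scaling (edgeR 4.0.16), a 2-fold threshold, a minimum of 20 UMIs, and classes of at least 100 barcodes, the last added after the class sizes were seen.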

Additional observations from a re-analysis of the deposited data

Results flagged for a closer look

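The progesterone and the PBDE contrast were each compared between 2 settings, which gave 61 comparisons of a gene in a class. Most gene and class pairs enter under both contrasts. In 8 of the 61, the 2 ratios lay on opposite sides of 1 with intervals that did not include it. Cdkn2a and Cdkn1a in L-Hor and Ccnd1 in basal barcodes are among them under both contrasts. This rule sets no 1.5-fold minimum, and the intervals cover counting error only. The same count was not made over all genes, so 8 of 61 is not read as a result about these genes. Both contrasts use the same 4 libraries, 1 per group, so the difference between the settings was not tested.

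For progesterone, the ratio of OVX_E2_P4 to OVX_E2 without PBDEs and of OVX_E2_P4_PBDE to OVX_E2_PBDE with them were compared. Cdkn2a in L-Hor was at 5.61 without and 0.18 with PBDEs. Cdkn1a in L-Hor was at 1.23 without and 0.788 with them, and in basal barcodes at 0.772 and 1.28. Ccnd1 in basal barcodes was at 0.69 without and 3.24 with them, ratios lost at a mitochondrial limit of 5%, where the latter was 1.02.

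For PBDEs, the ratio of OVX_E2_PBDE to OVX_E2 without progesterone and of OVX_E2_P4_PBDE to OVX_E2_P4 with it were compared. Cdkn2a in L-Hor was at 2.58 without and 0.0825 with progesterone, and Cdkn1a in L-Hor at 1.1 and 0.708. Ccnd1 was at 0.632 and 1.35 in L-Alv and at 0.389 and 1.83 in basal barcodes. With a mitochondrial limit of 5% the basal Ccnd1 ratios did not hold: those of OVX_E2_PBDE to OVX_E2, OVX_E2_P4_PBDE to OVX_E2_PBDE and OVX_E2_P4_PBDE to OVX_E2_P4 were 1.45, 1.02 and 1.26, and none of the 3 is read as a difference. The basal ratios rest on 63 to 148 barcodes per library and on a basal class of OVX_E2_P4_PBDE with luminal markers, whose part was not tested.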

How the results depend on the processing

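Up to 149 gene, class and comparison ratios were recomputed under each of 7 alternatives, which gave 1017 values in all. Of these values, 981 stayed within the counting interval of the reported ratio, 35 moved out of it and 1 reversed. A reversal was counted only for pairs past 1.5-fold. The 981 and the 35 can therefore hold changes of direction in pairs that did not pass. The reversed value was Ccnd1 in basal barcodes of OVX_E2_PBDE against OVX_E2, at a log2 ratio of 0.53 with a mitochondrial limit of 5%. The cause was not tested. At resolution 1.0, 148 of 148 stayed within it. Of the 32 pairs past 1.5-fold, 20 were past it in all 7 alternatives, and these included the 4 Cdkn2a differences in L-Hor, with ranges of 4.87 to 7.81 for OVX_E2_P4 against OVX_E2, 2.53 to 3.37 for OVX_E2_PBDE against OVX_E2, 0.152 to 0.255 for OVX_E2_P4_PBDE against OVX_E2_PBDE and 0.0810 to 0.110 for OVX_E2_P4_PBDE against OVX_E2_P4. Those that failed in at least 1 alternative included Ccnd1 in L-Alv of OVX_E2_PBDE against OVX_E2 (0.608 to 0.713), Ccnd1 in L-Hor of OVX_E2 against OVX (1.49 to 1.94), Ccnd1 in fibroblasts of OVX_E2_PBDE against OVX_E2 (0.625 to 0.748) and Ccnd1 in basal barcodes of OVX_E2_P4_PBDE against OVX_E2_P4 (1.26 to 1.94). So did Cdkn1c in L-Hor of OVX_E2_P4 against OVX_E2 (0.535 to 0.774) and Cdkn1b in fibroblasts of OVX_E2_P4_PBDE against OVX_E2_P4 (1.47 to 1.64). Counts of pairs past the fold differed as follows. For OVX_E2 against OVX, 9 became 15 with a minimum of 20 UMIs and 2 in classes of at least 100 barcodes. For OVX_E2_P4 against OVX_E2, 5 became 3 at 2-fold and 9 with 20 UMIs. For OVX_E2_P4_PBDE against OVX_E2_PBDE, 5 became 8 by mean per-barcode CPM, 2 at 2-fold, 10 with 20 UMIs and 3 in classes of at least 100 barcodes. For OVX_E2_PBDE against OVX_E2, 5 became 8 by mean per-barcode CPM, 2 at 2-fold and 10 with 20 UMIs. For OVX_E2_P4_PBDE against OVX_E2_P4, 8 became 2 at 2-fold and 4 in classes of at least 100 barcodes. By construction, a higher fold or class size leaves fewer pairs and a lower UMI minimum admits more. TMM scaling moved the log2 ratios of OVX_E2 against OVX by 0.33 in L-Hor, 0.25 in L-Alv and 0.15 in basal barcodes. The planned TMM scale between libraries was not run for the order of classes, which it cannot set, and was replaced by TMM between classes. No paired analysis was possible because each group has 1 library, and for the same reason no library could be left out. Depth limits Cdkn2a and Cdkn2b most, with 773 and 896 UMIs in all barcodes.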

Other observations

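In the L-Hor barcodes of OVX_E2_P4, the 88 with a Cdkn2a UMI had a median of 10160 UMIs and the 669 without had 8797. Cdkn1a was at 518 CPM in those with and 302 CPM in those without, Ccnd1 at 253 and 159 CPM, and Ccnd3 at 45.5 and 57.7 CPM. In OVX_E2_PBDE, the 53 barcodes with a Cdkn2a UMI had a median of 10091 UMIs and the 556 without had 10484.5, with Cdkn1a at 521 and 275 CPM, Ccnd1 at 258 and 136 CPM, and Ccnd3 at 57.6 and 56.3 CPM. Barcodes of 1 library are not replicates, and these values carry no test.

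Outside the 5 classes, Cdkn1a was at 319 to 427 CPM in endothelial and 229 to 356 CPM in hematopoietic barcodes. Ccnd1 in endothelial barcodes was at 109 to 178 CPM.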
